A study of Mus musculus with 2 samples.

Results

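The miR-130 and miR-301 family of the mouse comprised 4 miRNA genes here, Mir130a, Mir130b, Mir301 and Mir301b, of 2202 miRNA genes in the deposited count tables. They were taken by gene symbol, and all 4 were found in both tables. The set was put together with the levels of these genes in the same libraries known, so their levels and their ratios between animals are given as descriptions and without a test. The tissue came from 2 female mice of strain B6CASTF1/J, aged 2 months, and was the cerebral cortex of the left side; the mice were from The Jackson Laboratory. The strain name stands for a first-generation cross of a C57BL laboratory strain with the wild-derived CAST strain. Each animal gave 1 library of RNA shorter than 30 nucleotides, prepared from total RNA. No treatment or second genotype was studied, so both libraries form 1 group. The labels name the animals female 03 (animal 1 below) and female 04 (animal 2) and give them the same donor identifier.

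A miRNA is cut from a hairpin-shaped precursor whose left and right arms give the 5p and the 3p mature RNA. The mature RNA guides an Argonaute protein to messenger RNAs, chiefly through its seed, the bases from position 2 to position 8. Hairpins whose mature RNAs have the same seed are counted as a family because they can recognise the same sites. The miR-130 and miR-301 family is known for repressing PPARG, a nuclear receptor of fat and vascular cells.

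All 4 hairpins and 7 mature RNAs of the family had an entry in the RefSeq table (build GRCm38.p6), and mmu-miR-301b-3p had none. The 3p arms are shown first because they carry the seed that defines the family, with bases 2 to 8 in capitals.
miR-130a-3p: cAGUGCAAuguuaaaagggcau
miR-130b-3p: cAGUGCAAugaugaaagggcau
miR-301a-3p: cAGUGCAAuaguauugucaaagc
All 3 carry at bases 2 to 8 the seed AGUGCAA, whose reverse complement, the letters of a matching site, is UUGCACU. Counted from the 5′ end without gaps, miR-130a-3p and miR-130b-3p were identical at 20 of 22 bases and differed by U11A and A13G. miR-301a-3p matched miR-130a-3p at 12 of 22 bases and miR-130b-3p at 11 of 22. These arms therefore share their first 9 bases and part at position 10, where both miR-130 arms differ from miR-301a-3p by G10A. At 23 bases, miR-301a-3p is 1 base longer than the miR-130 arms.

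The 5p arms are shown because they divide the family differently, again with bases 2 to 8 in capitals.
miR-130a-5p: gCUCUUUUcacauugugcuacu
miR-130b-5p: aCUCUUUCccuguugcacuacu
miR-301a-5p: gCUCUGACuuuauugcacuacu
miR-301b-5p: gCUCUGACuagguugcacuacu
Both miR-301 arms have CUCUGAC at these positions, and both miR-130 arms have other letters. miR-301a-5p and miR-301b-5p were identical at 19 of 22 bases and differed by U10A, U11G and A12G. miR-130b-5p and miR-301b-5p, whose genes are neighbours, were identical at 16 of 22 bases and shared their last 11 letters. The tables count reads per hairpin gene and do not separate the arms, so which arm the reads came from was not measured.

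The family lies at 3 places in the genome (mm10, GENCODE M21). Mir130a (ENSMUSG00000065484.1) is on chromosome 2 at 84741115 to 84741178, minus strand, where no other gene is annotated over it. The nearest gene on its strand, Gm19426, is 990 bases away. Mir301 (ENSMUSG00000065589.1) encodes miR-301a and is on chromosome 11 at 87113004 to 87113089, plus strand. It sits in intron 1 of Ska2, a gene for a spindle and kinetochore protein, 2779 bases from the nearest exon of any Ska2 transcript. Mir130b (ENSMUSG00000065572.1) and Mir301b (ENSMUSG00000076288.1) are on chromosome 16, minus strand, at 17124061 to 17124142 and at 17124400 to 17124496. Only 257 bases separate them, and both lie in intron 1 of the protein-coding gene 2610318N02Rik on its own strand. Messenger RNA was not measured, so no host gene level can be set beside these miRNAs.

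Levels are in CPM, a gene's count scaled to 1000000 counts at all miRNA genes of the library. Animal 1 had 4415759 such counts among 13533476 reads and animal 2 had 2279562 among 10143234. The unmapped share of reads was 23.4% and 47.1%. A count of 0 allows up to 3 counts, which is 0.679 CPM for the first library and 1.32 CPM for the second. Intervals and limits cover counting error only, with each read taken as independent, and not the spread between animals or preparations. Reads were amplified by PCR and carried no molecular identifiers, so the intervals may be too narrow even for counting error. Of 14 cortex miRNAs listed as markers, 10 were detected, that is, they had 2 CPM or more in both animals. The others were Mir124a-1 (11 and 2 counts), Mir124a-2 (6 and 4), Mir124a-3 (4 and 0) and Mir9-2 (10 and 4). Reads that mapped to several places were not counted at any gene. The cortex list had none at 0 in both, and 5 of its members were higher in animal 1 beyond counting error and 4 in animal 2 (7 and 3 with all reads, unmapped included, as the total). Of 10 muscle and liver miRNAs, 3 were detected and 6 had 0 counts in both. Some of the 6 are by name copies of 1 miRNA. Reads that match several copies were counted at no gene, so those 0 counts do not show absence. Of the 3 detected, Mir122 (log2 ratio 0.73) and Mir499 (1.48) were higher in animal 1. Mir206 (0.54) was inside counting error, but beyond it with TMM scaling or all reads as the total.

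Across the family, Mir130a and Mir130b were close between the animals and Mir301 differed widely, while Mir301b had only 18 and 0 counts. Mir130a dominated in both cortices. Mir301, the source of miR-301a, came second in animal 1 and dropped below Mir130b in animal 2. Mir301b was seen in animal 1 and had no count in animal 2. In all, 3 of the 4 genes were detected, against 18.8% of all miRNA genes, and Mir301b was not.

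Mir130a, which represses antiangiogenic homeobox genes in human endothelial cells, had 4461 counts in animal 1 and 1950 in animal 2. These correspond to 1010 CPM (exact Clopper-Pearson 95% interval 981 to 1040) and 855 CPM (818 to 894), with a mean of 933 ± 109 CPM (SD, n = 2). It was the miRNA gene ranked 91 by level in animal 1 and 105 in animal 2. Its level was 1.18-fold higher in animal 1, a log2 ratio of 0.24 with a counting interval of 0.16 to 0.32. This interval leaves out 0, but the difference is below the median absolute log2 ratio of all 415 detected genes, which was 0.34.

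Mir130b, which shares its seed and most of its 3p arm with Mir130a, had 437 and 229 counts. These correspond to 99.0 CPM (89.9 to 109) in animal 1 and 100.5 CPM (87.9 to 114) in animal 2, a mean of 99.7 ± 1.06 CPM (SD, n = 2). A difference between the animals was not detectable at this depth: the log2 ratio was -0.02, with a counting interval of -0.26 to 0.22. With all reads as the total the log2 ratio was 0.52, beyond counting error, while the median of all detected genes shifted by 0.54. Mir130b stood at 9.80% of the Mir130a level in animal 1 and at 11.7% in animal 2.

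Mir301 had 1154 counts in animal 1 and 29 in animal 2. These correspond to 261 CPM (246 to 277) and 12.7 CPM (8.52 to 18.3), a mean of 137 ± 176 CPM (SD, n = 2). The SD exceeds the mean, so the mean describes neither animal. The level was 20.5-fold higher in animal 1 (counting interval 14.2 to 30.8), a log2 ratio of 4.36 (3.83 to 4.95) without a pseudocount. Relative to Mir130a in the same library, Mir301 stood at 25.9% in animal 1 and 1.49% in animal 2. In human cancer cells miR-301a is known to repress an inhibitor of NF-kappaB.

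Mir301b had 18 counts in animal 1 and 0 in animal 2, or 4.08 CPM (2.42 to 6.44) against a limit of 1.32 CPM. That limit is 3 counts, while the exact interval for animal 2 reaches 1.62 CPM. Against 3 counts in animal 2, and with the 18 counts taken as exact, the Mir301b level was at least 3.10-fold higher in animal 1 (log2 ratio 1.63). With counting error in both libraries, the lower end of the interval was 2.27-fold, a log2 ratio of 1.18. Animal 1 held all 18 counts, a share of 100% with an exact interval of 81.5 to 100%, while it held 66.0% of both libraries' counts at genes.

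**Figure D1:**
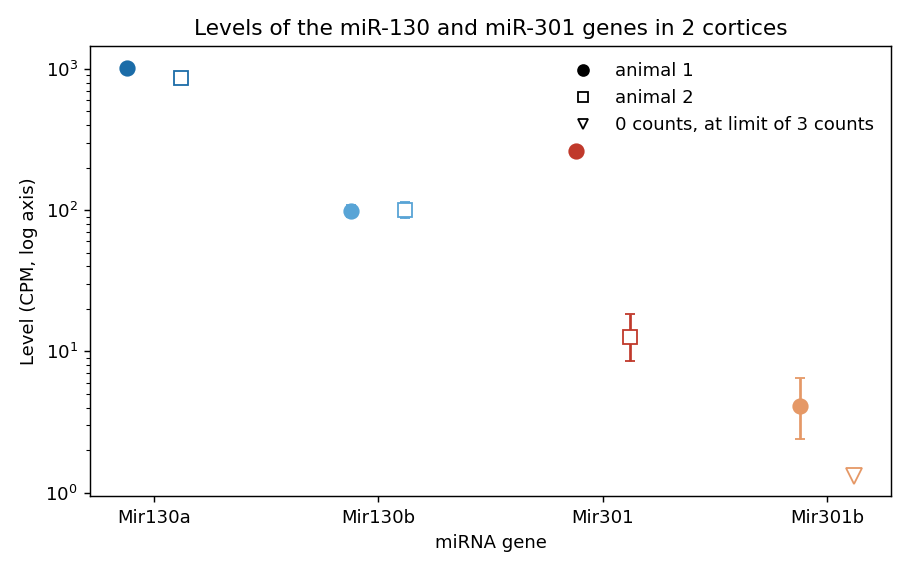
Level of each gene in CPM on a log axis, with filled circles for animal 1, open squares for animal 2, exact 95% counting intervals as bars and an open triangle for a count of 0 placed at the limit of 3 counts. From animal 1 to animal 2, Mir130a goes from 1010 to 855 CPM and Mir130b from 99.0 to 100.5 CPM. Mir301 falls from 261 to 12.7 CPM, and Mir301b goes from 4.08 CPM to a count of 0.

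In animal 1 the order of levels was Mir130a, Mir301, Mir130b and Mir301b, and none of these neighbours' counting intervals overlapped. In animal 2 it was Mir130a, Mir130b, Mir301 and Mir301b, again without overlap, with the limit of 1.32 CPM for Mir301b. The place of Mir301 relative to Mir130b thus turned between the animals. Hairpin lengths run from 64 to 97 bases, and CPM per base of hairpin gave the same order in each animal: 15.8, 3.04, 1.21 and 0.042 in animal 1. In animal 2 these values were 13.4 for Mir130a, 1.23 for Mir130b, 0.148 for Mir301 and 0 for Mir301b.

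As a whole the family's share of counts was 0.137% (exact interval 0.134 to 0.141%) for animal 1 and 0.0969% (0.0929 to 0.101%) for animal 2, a mean of 0.117% ± 0.0287 (SD, n = 2). Its summed level was 1375 and 969 CPM, 1.42-fold higher in animal 1. Without Mir301, a choice made after the values were seen, the sum was 1113 and 956 CPM, 1.16-fold higher. Mir130a made up 73.5% of the family's counts in animal 1 and 88.3% in animal 2. Mir130b made up 7.20% and 10.4%. Mir301 made up 19.0% (exact interval 18.0 to 20.0%) in animal 1 and 1.31% (0.881 to 1.88%) in animal 2.

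**Figure D2:**
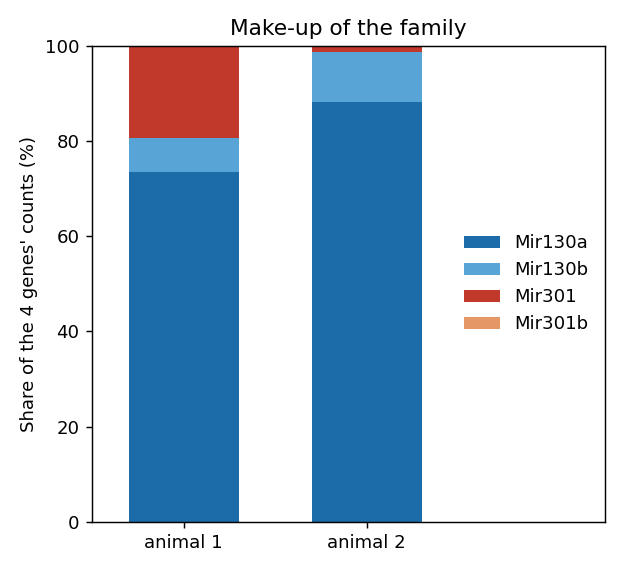
Share of the counts of the 4 genes, in percent, that each gene held in animal 1 and in animal 2, as stacked bars. The Mir301 segment takes 19.0% in animal 1 and 1.31% in animal 2, and the Mir301b segment (0.297% in animal 1) is too thin to see.

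Members with the same seed compared differently between the animals. Grouped by name, Mir130a and Mir130b together had 1109 and 956 CPM, a log2 ratio of 0.21 (counting interval 0.14 to 0.29). Mir301 and Mir301b together had 265 and 12.7 CPM, a log2 ratio of 4.38 (3.85 to 4.97). That grouping follows values already known and rests mostly on Mir301, which supplied 1154 of the 1172 counts in animal 1.

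The chromosome 16 neighbours Mir130b and Mir301b differed in how they compared between the animals. In animal 1 Mir301b held 3.96% of their joint counts (exact interval 2.36 to 6.18%). In animal 2 Mir301b had 0 counts beside 229 of Mir130b. The limit of 3 counts is 1.31% of the Mir130b count, which is another rule than the exact interval for animal 1. Their log2 ratios lay 1.65 apart with Mir301b at 3 counts in animal 2, and 1.20 apart with Mir301b at the lower end of its counting interval. Neither value counts the error of Mir130b. Detected miRNA genes that follow each other within 10 kb on the same strand formed 104 pairs. The median absolute difference of log2 ratios in these pairs was 0.53, and 99 pairs (95.2%) were closer than 1.65, while 92 (88.5%) were closer than 1.20. With 5 CPM added to every level the neighbours lay 0.88 apart, and 72.1% of pairs were closer. The closest were Mir30c-1 and Mir30e, 0.0063 apart. The farthest were Mir296 and Mir298, 3.20 apart. Mir301b itself was below the detection level, so its pair is not one of the 104. Every other pair with a gene below that level was left out too. The shares therefore do not place this pair among pairs with a count near 0 in 1 animal. Many of the 104 pairs lie on chromosome 12, plus strand, and pairs that follow each other share a gene. The pairs are therefore not independent.

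**Figure D3:**
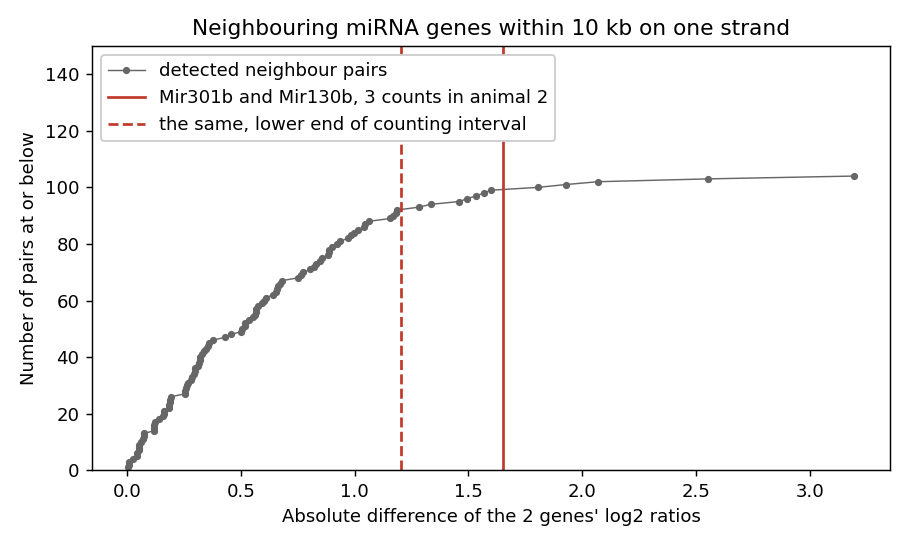
Number of neighbouring pairs (within 10 kb, same strand, both detected) at or below each absolute difference of log2 ratios, with one point per pair. The solid line is the value of 1.65 for Mir301b and Mir130b at 3 counts in animal 2, which 5 of 104 pairs exceed, and the dashed line is the value of 1.20 at the lower end of the counting interval, which 12 exceed.

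Of the 3 detected members, 2 (Mir130a and Mir301) lay beyond counting error, both higher in animal 1. Over all detected genes 56.6% lay beyond it, 27.0% higher in animal 1 and 29.6% higher in animal 2, so the members' count is near the background. With all reads, unmapped included, as the library total, this split was 58.1% and 10.1% of the 415 genes. By size, 1 of the 3, Mir301, passed a log2 ratio of 1, against 13.5% of all detected genes in either direction and 5.54% higher in animal 1. Mir301 had the highest log2 ratio of the 415, ahead of Mir451a (3.13), Mir200b (3.12), Mir144 (2.15) and Mir153 (1.65). The quartiles over all detected genes ran from -0.36 to 0.30. The animals and the library preparations cannot be told apart, because each animal had 1 library.

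**Figure D4:**
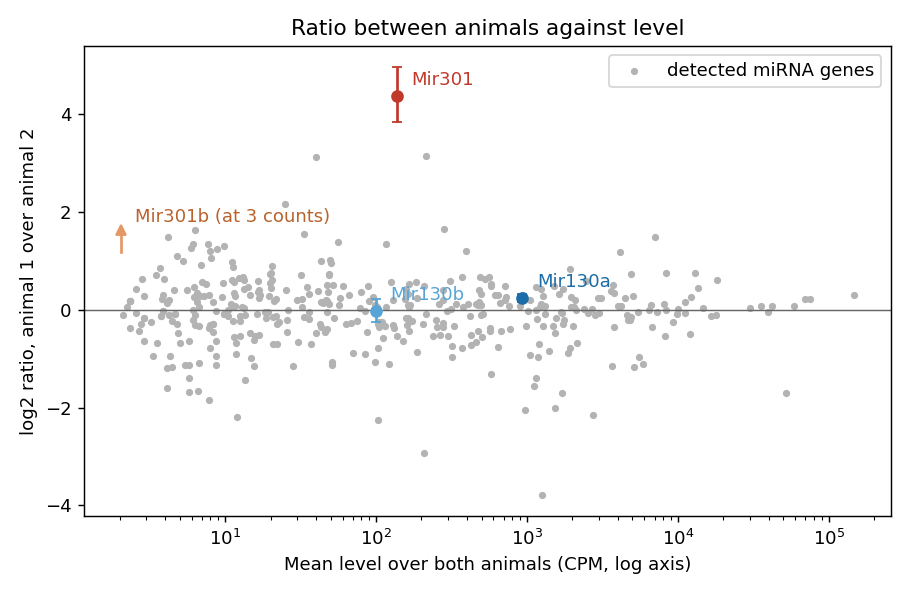
Log2 ratio of animal 1 over animal 2 without a pseudocount against mean level in CPM (log axis), with grey points for the 415 detected genes, bars for the members' counting intervals and a triangle for Mir301b at 3 counts in animal 2 (1.63), with a line down to the lower end of its counting interval (1.18). Mir130a (0.24) and Mir130b (-0.02) lie within the grey points, and Mir301 (4.36) lies above all of them.

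Over the 2 libraries, likeness was measured as the Euclidean distance in log2(CPM + 1). Closest to Mir130a were Mir195a (distance 0.043), Mir532 (0.142) and Mir125b-1 (0.228). Closest to Mir130b were Mir186 (0.044), Mir1298 (0.061) and Mir325 (0.089). Mir301 had no close match: the nearest were Mir451a at 1.80, Mir200b at 1.92 and Mir539 at 2.08. The distance uses only the 2 levels of each gene, so it restates the level and ratio of Mir301 and is no separate evidence. Mir451a, a red cell miRNA, stood at 385 CPM and 43.9 CPM in animals 1 and 2.

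Blood and vessel miRNAs were set beside Mir301, as the cells of a cortex sample include both. All 6 listed blood miRNAs were detected, and none was at 0. Their summed levels were 1812 and 1803 CPM, but Mir150 alone held 1319 and 1668 CPM, so the sums mostly follow that gene. Of the 6, Mir451a and Mir144 were higher in animal 1, and Mir150 and Mir223 were higher in animal 2. With all reads as the total, Mir150 was higher in animal 1. Mir486 and Mir142 were inside counting error. All 3 vascular miRNAs (Mir126a, Mir143 and Mir145a) were higher in animal 2, with sums of 11469 and 15155 CPM, though with all reads as the total none was and 1, Mir143, was higher in animal 1. Of 9 listed growth-associated miRNAs of the miR-17 clusters, 8 were detected: 5 stayed inside counting error, animal 1 had the higher level of 2 and animal 2 of 1 (of 7 and 0 with all reads as the total). The part of blood content in the Mir301 difference was not tested. In bulk tissue, fewer cells of a type and less RNA per cell cannot be told apart.

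The family seed was searched in all 1738 mature miRNAs of the RefSeq table, and 7 carried it at bases 2 to 8. Beside the 3 above, these were miR-130c, miR-721, miR-6341 and miR-6389, shown for what they share with the members.
miR-130c: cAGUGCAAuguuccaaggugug
miR-721: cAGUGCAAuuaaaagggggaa
miR-6341: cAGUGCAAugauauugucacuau
miR-6389: cAGUGCAAuguuaaacuuugc
Their genes Mir130c, Mir721, Mir6341 and Mir6389 had 0 counts in both animals, as did 66.1% of all miRNA genes.

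Other miRNAs hold most of the seed letters shifted by 1 base. Examples with the shared letters in capitals are shown because they can pair with overlapping sites.
miR-148a-3p: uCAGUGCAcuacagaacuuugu
miR-148b-3p: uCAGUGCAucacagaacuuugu
miR-152-3p: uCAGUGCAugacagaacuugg
miR-19a-3p: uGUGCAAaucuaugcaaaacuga
The miR-148 and miR-152 genes were all detected and all 3 were higher in animal 1 beyond counting error, as were 27.0% of all detected genes (58.1% with all reads as the total). Mir148a had 49.8 and 17.1 CPM, a log2 ratio of 1.54 (counting interval 1.05 to 2.07). Mir148b had 57.7 and 29.0 CPM, a log2 ratio of 1.0 (0.60 to 1.41). Mir152 had 25.1 and 14.9 CPM, a log2 ratio of 0.75 (0.19 to 1.35). Their intervals lie below that of Mir301. Mir19a and Mir19b-2 had 0 counts in both animals, and Mir19b-1 had 0 and 1. Mir19b-1 and Mir19b-2 encode the same miR-19b-3p, and reads that match both genes were counted at neither. Their counts therefore do not show whether miR-19b was present.

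Shared sequence between hairpins was compared because reads that map to several places were tallied apart from genes. The longest stretch that a member shared with any other of the 1005 RefSeq hairpins was 17 bases, between Mir130a and Mir6389. For Mir301 it was 16 bases, shared with Mir301b and given in capitals in both hairpins.
Mir301: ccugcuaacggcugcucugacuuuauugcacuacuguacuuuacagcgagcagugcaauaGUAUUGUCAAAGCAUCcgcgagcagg
Mir301b: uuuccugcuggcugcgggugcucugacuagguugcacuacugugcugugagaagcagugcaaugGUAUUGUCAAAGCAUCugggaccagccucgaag
Aligned end to end, these hairpins were identical at 70 of 99 columns, the highest identity (70.7%) among the 6 pairs of members. The lowest was 47.4%, between Mir130a and Mir301b. No member shared an unbroken stretch of 22 bases, the length of most of its mature arms, with another hairpin in the table. Only exact stretches were compared, so reads that are shorter or align with mismatches were not covered. Moreover, 968 of the 2202 measured genes had a sequence there, and the rest of the genome was not compared. The reads at several places have their own entry in the deposited counts, 5063531 in animal 1 and 2585568 in animal 2, and are at no gene. No source used here gives further detail on how they were handled.

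The strand columns gave no second source of reads at these genes. Mir130b, Mir301 and Mir301b had 0 counts on the opposite strand in both animals. Mir130a had 2 and 1, both under the limit of 3 counts. Unstranded counts were 4463 and 1951 for Mir130a and equal to the read-strand counts for the other members.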

How the data were processed

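The authors deposited 1 table of raw read counts per library, with 3 unlabelled columns whose roles (unstranded, read strand, opposite strand) were read from the values. The build mm10 and annotation GENCODE M21 are per the metadata deposited with each library. No source used here names the aligner, the trimming or the filters. Read-strand counts were used. The 4 summary entries were left out of totals (67.4% of reads in animal 1, 77.5% in animal 2).

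CPM, SD and exact Clopper-Pearson intervals were computed with Python 3.11.15 and SciPy 1.17.1. A gene lay beyond counting error when the interval of animal 1's share of its counts left out 66.0%, the share from library totals. With 1 group no differential test was run. Scaling alternatives used edgeR 4.0.16 (TMM) and DESeq2 1.42.0. All 2202 identifiers matched GENCODE. Hairpins were aligned with Biopython 1.88.

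The members and lists were chosen with earlier results of these data known. Named genes were the members, the 3 nearest detected genes to each, up to 3 of each list and the extreme neighbour pairs. Same-seed genes, the remaining blood miRNAs, the undetected cortex miRNAs and the 4 next-highest ratios were named after their values were seen.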

Additional observations from a re-analysis of the deposited data

Results flagged for a closer look

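Reads that mapped to several places lay outside the counts used here: 37.4% of reads in animal 1 and 25.5% in animal 2, so how many such reads came from the family is unknown.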

How the results depend on the processing

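No paired analysis was possible because there is 1 group. No called direction of a family member reversed under the alternatives run, but these could hardly reverse one. Each called member was higher in animal 1, the scaling alternatives raised the log2 ratios, and a pseudocount cannot change a sign. Mir130b, which was not called, went from -0.02 to 0.0029 with TMM scaling. Scaling to all reads, unmapped included, gave levels of 261 CPM for Mir130a and 27.4 for Mir130b, and moved their log2 ratios to 0.78 and 0.52, while the median of all detected genes shifted by 0.54; relative to that shift the ratios are as reported. Mir301 then averaged 44.1 CPM, inside its SD only because that SD exceeds its mean. Scaling to mapped reads gave 397 and 42.4 CPM. Leaving out the most abundant miRNA gene gave 1095 and 116.8 CPM, and the unstranded column gave 106.6 CPM for Mir130b. These level changes follow from the denominators. With a pseudocount of 5 CPM the Mir301b log2 ratio was 0.86 and the neighbour difference 0.88; with 1 CPM that difference was 2.37. At the lower end of the Mir301b counting interval, added after seeing the data, the difference was 1.20 and 88.5% of neighbour pairs were closer; with 5 CPM, also added, 72.1% were. With its count of 0, Mir301b gives ratios that depend on the pseudocount. Leaving out either library left 855 to 1010 CPM for Mir130a, 99.0 to 100.5 for Mir130b, 12.7 to 261 for Mir301, 0 to 4.08 for Mir301b, 3 to 4 members detected and a family share of 0.0969 to 0.137%; with 2 libraries such values always lie within 1 SD of the mean, so they say nothing of stability. The Mir301 log2 ratio ran from 3.91 to 4.90 over all alternatives. With all reads as the total, 3 members lay beyond counting error in place of 2, and 258 of 323 genes did in place of 235 of 415. Depth limits Mir301b, whose 18 counts are all in 1 library.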
